A study of Arabidopsis thaliana with 21 samples.

Results

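The chloroplast NDH complex is an NADH dehydrogenase-like machine of the thylakoid membrane, related to complex I of mitochondria. It passes electrons to plastoquinone from ferredoxin, which photosystem I has reduced, and so returns electrons to the photosynthetic chain as one of the routes of cyclic electron flow around photosystem I. Its subunits are made in both compartments: the plastid genome encodes the core that resembles complex I, and the nucleus encodes the peripheral subunits, the proteins that link the complex to photosystem I, and the factors that edit and process the plastid ndh transcripts. The 10 chloroplast-encoded subunits described here are NDHA (ATCG01100), NDHC (ATCG00440), NDHD (ATCG01050), NDHE (ATCG01070), NDHF (ATCG01010), NDHG (ATCG01080), NDHH (ATCG01110), NDHI (ATCG01090), NDHJ (ATCG00420) and NDHK (ATCG00430), chosen by the plastid gene identifiers they carry in the deposited table. They are 10 of 25263 genes in all, and 10 of the 102 identifiers of the plastid genome (those starting ATCG). The other chloroplast-encoded subunit, ndhB, was not analysed here.

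RNA was sequenced from 10-day-old untreated Arabidopsis thaliana seedlings grown on agar plates at 20 °C under 16 h of light and 8 h of dark. At1+ and At1++ over-expressed AtIPCS1, At2+ and At2++ over-expressed AtIPCS2, and At3+ and At3++ over-expressed AtIPCS3, each from a transgene introduced into the Columbia-0 background (vector pK7WG2), and the untransformed Col-0 parent served as the control. AtIPCS1, AtIPCS2 and AtIPCS3 are the isoforms of inositol phosphorylceramide synthase, an enzyme of sphingolipid metabolism. The labels ++ and + mark the line with the higher and the line with the lower level of the over-expressed isoform's transcript. Each label stands for 1 transformed line with 3 replicates, which the study calls technical triplicates of that line in places, so the tests measure the spread between these samples, and a property of the line cannot be told apart from an effect of the introduced gene. Replicates 1 and 2 of At3+ held identical values for every gene in the deposited table, so they count as a single sample here. This leaves n = 2 for At3+ and n = 3 for the other groups.

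The 20 distinct libraries held 12733113 to 17210244 reads on genes, but only 120 to 9782 of them per library fell on the 10 NDH members, so that Col-0 values rest on few reads (3 to 88 per member and library). In the libraries labelled At2++ and At2+ the AtIPCS2 transcript stood in the opposite order to the labels (log2 fold change of ++ over + -0.84, limma adjusted p = 1.48e-08), and in those labelled At3++ and At3+ the AtIPCS3 transcript did so too, without passing the test (-1.04, limma adjusted p = 0.0987). The count of an AtIPCS gene does not separate reads of the introduced copy from those of the plant's own gene. Directions between ++ and + below follow the labels. At2+ replicate 1 stood apart, with 0.990% of its reads on plastid identifiers against 0.563% and 0.405% in the other At2+ libraries, and its NDH members at 2.15 to 3.38 times the mean of those libraries. The defining genes of green tissue were abundant in every library. The markers of dry seed (CRU1, CRU3, OLEO1, SESA1 and OLEO4, which encode seed storage and oil-body proteins) were called higher in all 6 lines, 5 of 5 each time, and their summed normalized count was 1338 to 2215 in At1+, 22662 to 25078 in At1++, 4551 to 5602 in At2+, 2195 to 2334 in At2++, 398 to 706 in At3+ and 9257 to 11769 in At3++, against 4.67 to 11.4 in Col-0. The sum of 5 green tissue markers was 234726 to 267161 in At1+, 330160.0 to 403637 in At1++, 426405 to 495679 in At2+, 424322 to 529457 in At2++, 265067 to 273680 in At3+ and 319387 to 358473 in At3++, against 227777 to 244804 in Col-0. Within that list LHCB2.1, a light-harvesting protein of photosystem II, went the other way and was called lower in all 6 lines (log2 fold changes between -1.90 in At1++ and -1.33 in At2++, limma), while RBCS1A was called higher in At2+ and At2++. At an unadjusted limma p under 0.05, 1 of the 5 was higher and 2 lower in At1+. In At1++, At2++ and At3++ 3 were higher and 2 lower at that p. In At2+ 3 were higher and 1 lower, and in At3+ 0 were higher and 1 lower. Of 5 root markers, COBL9 and EXPA7 were called higher in At1++, At2+ and At2++, and EXPA7 in At3++. The root markers of At1++ were split, with 2 higher and 1 lower at an unadjusted limma p under 0.05. Their lowest log2 fold change there was -0.92, which was not called. No other line had a root marker lower at that p. The root marker sum was 1081 to 1529 in At1+, 734 to 872 in At1++, 1408 to 1536 in At2+, 1268 to 1384 in At2++, 965 to 1072 in At3+ and 1301 to 1577 in At3++, against 906 to 1034 in Col-0. The part of these shifts in the results below was not tested, and in whole seedlings fewer cells of a type and less RNA per cell cannot be told apart.

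The members lie in 3 places of the chloroplast genome, all on the minus strand. In the TAIR10.1 build, ndhC, ndhK and ndhJ follow each other between positions 48677 and 50363. The longest run is ndhH, ndhA, ndhI, ndhG, ndhE, psaC and ndhD, between positions 115665 and 123192, in which psaC encodes an iron-sulfur subunit of photosystem I. The gene ndhF stands apart at positions 110398 to 112638. All are read from a single coding exon except ndhA, whose 2 exons enclose an intron of 1080 bases. In the long run ndhH ends 1 base before ndhA begins, and the gap from ndhI to ndhG is the widest at 336 bases. Sequences are shown for ndhH, which opens that run, for ndhE and ndhD near its other end, and for its tightest junction, because these members differed most from each other in the values below. The first 30 coding bases are given 5′ to 3′ from RefSeq, with the first codon in capitals: ndhD, whose first codon is an ACG that becomes a start codon only when the transcript is edited, a step that needs the nuclear factor CRR4, and ndhH and ndhE, which begin with a plain ATG.
ndhD (positions 117138 to 117167): ACGaatgattttccttggttaacaataatt
ndhE (positions 118080 to 118109): ATGatactcgaacatgtacttgttttgagt
ndhH (positions 123163 to 123192): ATGaagagaccagttacaggaaaagatctt
In the junction at positions 121980 to 122040, the last codon of ndhH and the first codon of ndhA are in capitals.
ndhH to ndhA: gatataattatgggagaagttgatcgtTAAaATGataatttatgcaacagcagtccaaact

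The first question was whether the NDH transcripts differed between each over-expressing line and Col-0. They did in 5 of the 6 lines. All 10 members were higher in At1++, At2+, At2++ and At3++ than in Col-0, and 9 of 10 in At1+, whereas in At3+ only NDHH passed the limma test (2 members did without Col-0 replicate 2, and 0 in edgeR). No member was called lower in any line by limma, edgeR or DESeq2, and at an unadjusted limma p under 0.05 the only such member was NDHE in At3+. Calls rest on limma, fitted to log2(normalized count + 1) over 22222 genes, and a gene was called where its adjusted p was below 0.05 and its log2 fold change reached 1 in either direction. Among all genes tested, the percentage called higher was 1.78% in At1+ and 4.06% in At1++, 4.76% in At2+ and 5.90% in At2++, and 0.594% in At3+ and 4.04% in At3++. The percentage called lower was 1.96% in At1+ and 5.02% in At1++, 2.69% in At2+ and 4.91% in At2++, and 1.18% in At3+ and 2.31% in At3++. The median log2 fold change of the 10 members was 2.24 in At1+ and 3.53 in At1++, 5.42 in At2+ and 4.11 in At2++, and 0.59 in At3+ and 3.43 in At3++, beside medians over all genes between -0.02 and 0.01. Most other plastid transcripts moved in the same direction: of the 82 other plastid identifiers tested, At1+ had 53 called higher (median log2 fold change 1.60), At1++ had 66 (2.21), At2+ had 80 (3.94), At2++ had 72 (2.76), At3+ had 9 (0.34) and At3++ had 64 (2.1001).

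**Figure D1:**
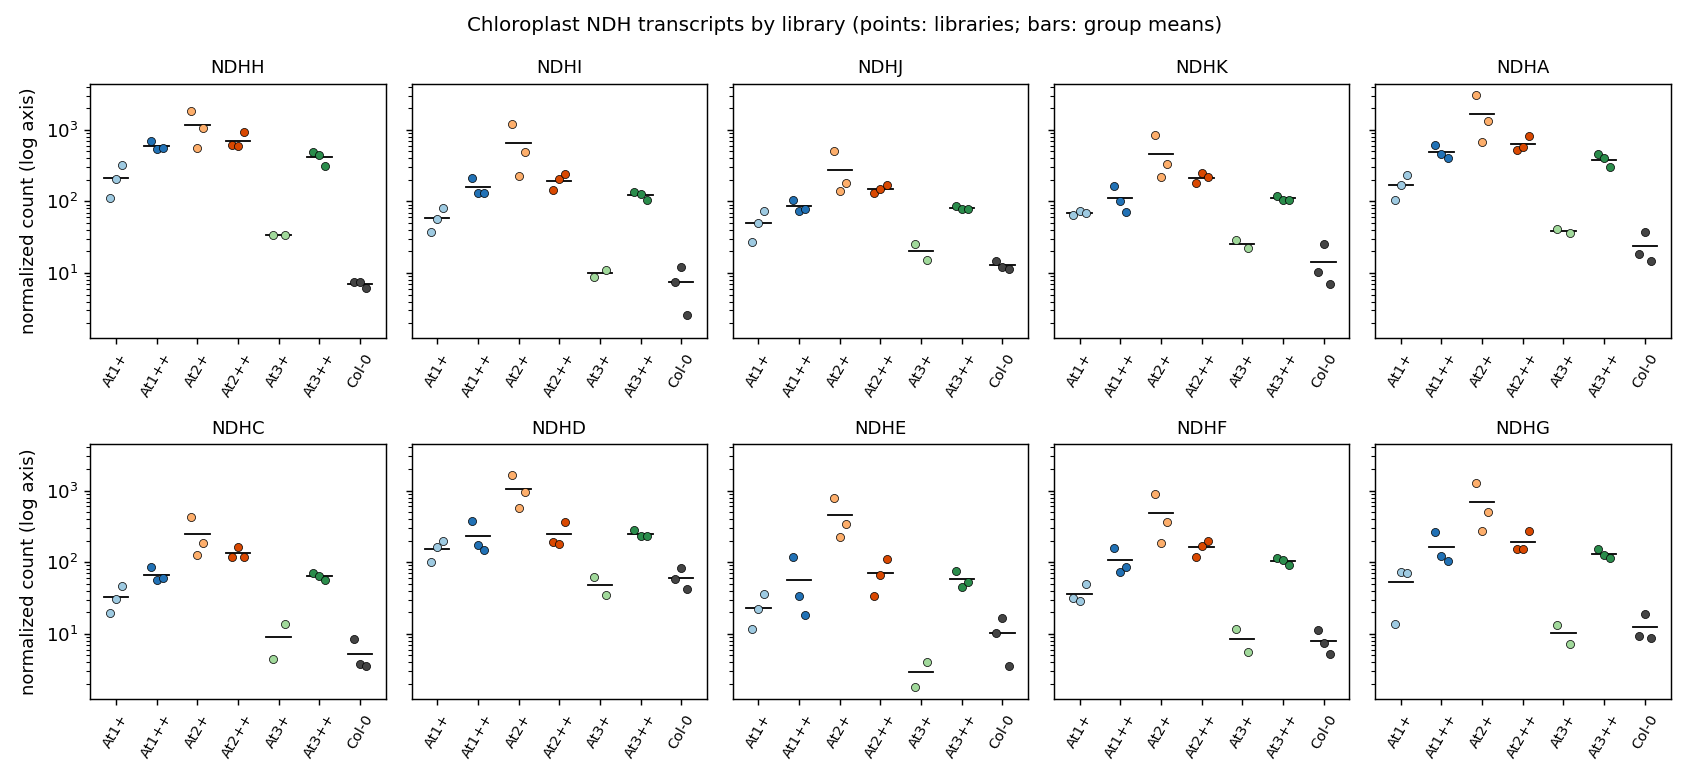
Normalized count of each chloroplast NDH transcript (log axis) in every library of the 6 over-expressing lines and of Col-0, with points for libraries and bars for group means. All 10 members lie above every Col-0 library in At1++, At2+, At2++ and At3++, and At3+ overlaps Col-0 for 8 of 10.

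Among the subunits of the arm that projects into the stroma, NDHH showed the steepest difference in all 6 lines. NDHH is a counterpart of a core subunit of respiratory complex I. Its normalized count was 112, 204 and 318 in At1+, 690.3, 546 and 563 in At1++, 1857, 567 and 1046 in At2+, 614, 588 and 927 in At2++, 33.8 and 33.6 in At3+ and 496, 442 and 312 in At3++, against 7.42, 7.48 and 6.15 in Col-0. Every library of every line lay above every Col-0 library, and At3+ lay between Col-0 and the other lines. The log2 fold change over Col-0 was 4.61 in At1+ and 6.22 in At1++, 7.02 in At2+ and 6.44 in At2++, and 2.12 in At3+ and 5.68 in At3++, with standard errors of 0.31 (0.34 in At3+) and limma adjusted p of 0.000153 or smaller. The Col-0 libraries held 7 or 8 reads each on NDHH, so the size of these folds rests on few control reads, and in At3+ the call was lost in edgeR (2.24, edgeR adjusted p = 0.157).

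The other stromal-arm subunits are NDHI and NDHK, which carry iron-sulfur centres, and NDHJ, and their log2 fold changes were smaller than that of NDHH in all 6 lines. For NDHI the normalized count was 37.9, 56.2 and 81.3 in At1+, 212, 133 and 133 in At1++, 1216, 226 and 493 in At2+, 145, 205 and 238 in At2++, 8.91 and 11.2 in At3+ and 135, 126 and 105 in At3++, against 7.42, 12.2 and 2.63 in Col-0. Its libraries lay above all Col-0 libraries in every line but At3+, with log2 fold changes of 2.94 in At1+ and 4.41 in At1++, 6.12 in At2+ and 4.71 in At2++ and 4.05 in At3++, and 0.57 (limma adjusted p = 0.548) in At3+. For NDHK the normalized count was 65.2, 73.9 and 69.7 in At1+, 162, 101 and 71.9 in At1++, 846, 218 and 331 in At2+, 178, 247 and 222 in At2++, 28.5 and 22.4 in At3+ and 119, 106 and 105 in At3++, against 10.2, 25.2 and 7.02 in Col-0. NDHK passed in every line but At3+, with log2 fold changes of 2.41 in At1+ and 3.00 in At1++, 4.89 in At2+ and 4.01 in At2++ and 3.06 in At3++, and 0.98 (limma adjusted p = 0.149) in At3+. For NDHJ it was 27.2, 50.7 and 73.6 in At1+, 106, 73.1 and 78.7 in At1++, 513, 141 and 180.3 in At2+, 129.6, 151 and 171 in At2++, 25.8 and 15.2 in At3+ and 87.7, 78.5 and 77.9 in At3++, against 14.8, 12.2 and 11.4 in Col-0. NDHJ, which sits at the downstream end of the ndhC run, had the smallest difference of the stromal-arm subunits in 5 of 6 lines (in At3+ it was NDHI), with log2 fold changes of 1.80 in At1+ and 2.64 in At1++, 4.11 in At2+ and 3.46 in At2++ and 2.58 in At3++ and of 0.60 in At3+ (limma adjusted p = 0.384).

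The membrane-arm subunits NDHA, NDHC, NDHD, NDHE, NDHF and NDHG carry the quinone site together with the stromal arm and the parts related to proton pumps. NDHA, which lies where both arms meet, was the most abundant of them in At1+, At1++, At2+, At2++ and At3++. Its normalized count was 103, 169.8 and 236 in At1+, 610.0, 459.9 and 402 in At1++, 3047, 666 and 1347 in At2+, 530.2, 575 and 819 in At2++, 41 and 36 in At3+ and 457, 399.8 and 298 in At3++, against 18.5, 37.4 and 14.9 in Col-0. All libraries of the lines other than At3+ lay above Col-0, and in At3+ the highest Col-0 library lay within the At3+ range. The log2 fold change was 2.82 in At1+ and 4.40 in At1++, 5.94 in At2+ and 4.79 in At2++ and 4.06 in At3++, and 0.78 (limma adjusted p = 0.273) in At3+.

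NDHD was the exception among the members in its starting level. It is one of the large membrane subunits related to proton pumps. Its normalized count was 101, 161 and 200.4 in At1+, 372, 177 and 149 in At1++, 1642, 574 and 952 in At2+, 193, 178 and 361 in At2++, 62.3 and 35.2 in At3+ and 283, 230.3 and 231 in At3++, against 58.4, 82.3 and 42.1 in Col-0. In Col-0 it was thus the most abundant member per library, holding 38.1% ± 1.67 of all NDH reads (SD, n = 3), and the shallowest of the 10 in At1++, At2+, At2++ and At3++, with log2 fold changes of 1.32 in At1+ and 1.85 in At1++, 4.01 in At2+ and 1.96 in At2++ and 2.05 in At3++. In At3+ the value was -0.32 (limma adjusted p = 0.716). NDHE, its neighbour beyond psaC and a short membrane subunit, was the shallowest in At1+ and At3+. Its normalized count was 11.7, 22.1 and 35.8 in At1+, 116, 33.7 and 18.5 in At1++, 793, 222 and 339.6 in At2+, 33.9, 65.6 and 112 in At2++, 1.78 and 4 in At3+ and 74.4, 45 and 52.7 in At3++, against 10.2, 16.8 and 3.51 in Col-0. In At3+ these values are 2 and 5 reads. The At1+ libraries overlapped those of Col-0, and the At1+ difference of 1.19 did not pass the test (limma adjusted p = 0.117), nor did that of -1.37 in At3+ (limma adjusted p = 0.196).

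The 3 remaining membrane-arm subunits lay between these. NDHC, the first gene of its run, had a normalized count of 19.5, 30.9 and 46.5 in At1+, 86.3, 55.8 and 59.3 in At1++, 434, 125 and 184 in At2+, 117, 165 and 119 in At2++, 4.45 and 13.6 in At3+ and 70.3, 63.8 and 56.3 in At3++, against 8.34, 3.74 and 3.51 in Col-0. Its log2 fold change was 2.43 in At1+ and 4.50 in At2++, with 0.61 in At3+ (limma adjusted p = 0.456). NDHF, the large subunit at the far end of the membrane arm, had 31.1, 28.7 and 49.4 in At1+, 159.6, 72.3 and 85.5 in At1++, 891, 184 and 362 in At2+, 119.6, 168 and 196 in At2++, 11.6 and 5.59 in At3+ and 116, 106 and 91.1 in At3++, against 11.1, 7.48 and 5.27 in Col-0. The NDHF difference was 2.07 in At1+ and 3.54 in At1++, 4.20 in At2++ and 3.60 in At3++ on the log2 scale, with 0.076 in At3+ (limma adjusted p = 0.952). NDHG had 13.6, 72.8 and 71.6 in At1+, 264, 121 and 105 in At1++, 1297, 271 and 504 in At2+, 152, 154 and 275 in At2++, 13.4 and 7.19 in At3+ and 155, 127 and 115 in At3++, against 9.27, 18.7 and 8.78 in Col-0. All 3 rose in every line except At3+, and At1+ replicate 1 of NDHG lay within the Col-0 range while the other 2 At1+ libraries lay above it. That call is the least firm of those in At1+: the log2 fold change was 1.77 (limma adjusted p = 0.00929), and it missed the thresholds in edgeR (adjusted p = 0.0692) and when At1+ replicate 2 or 3 was left out.

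Counted without a test, the libraries of a line all lay above those of Col-0 for 8 of 10 members in At1+ (all but NDHE and NDHG), for 10 of 10 in At1++, At2+, At2++ and At3++, and for 2 of 10 in At3+ (NDHH and NDHJ). Over all 22222 genes the percentage that lay so was 21.9% in At1+ and 25.4% in At1++, 26.1% in At2+ and 28.5% in At2++, and 20.6% in At3+ and 26.4% in At3++. The At3+ share of the members was thus near that of all genes.

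Along the long run of genes, the difference from Col-0 was steepest at ndhH and shallowest towards ndhE and ndhD. In At1++ the log2 fold changes were 6.22 for NDHH, 4.40 for NDHA, 4.41 for NDHI, 3.58 for NDHG, 2.15 for NDHE, 3.31 for psaC and 1.85 for NDHD. The order was not strict, since psaC, which lies between ndhE and ndhD, stood above NDHE in every line but At2+. In At2+ the values were 7.02 for NDHH, 5.94 for NDHA, 6.12 for NDHI, 5.49 for NDHG, 5.34 for NDHE, 4.87 for psaC and 4.01 for NDHD. The order was taken from ndhH on, and it leaves out the identifier next to NDHH by number, ATCG01120 (rps15). That gene belongs to the same transcription unit and had a smaller value than NDHH in every line (5.24 in At1++ and 5.95 in At2+). The fall described here therefore covers only the genes from ndhH to ndhD. NDHH exceeded NDHD by 3.29 in At1+ and 4.38 in At1++, 3.00 in At2+ and 4.48 in At2++, and 2.44 in At3+ and 3.63 in At3++ on the log2 scale. In the run of ndhC, ndhK and ndhJ the difference was also largest at the first gene in At1++, with 3.52 for NDHC, 3.00 for NDHK and 2.64 for NDHJ. In At2+ these values were 5.21 for NDHC, 4.89 for NDHK and 4.11 for NDHJ. In At3+ they were 0.61 for NDHC, 0.98 for NDHK and 0.60 for NDHJ, and none of the 3 was called. These orders are a description with no test.

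**Figure D2:**
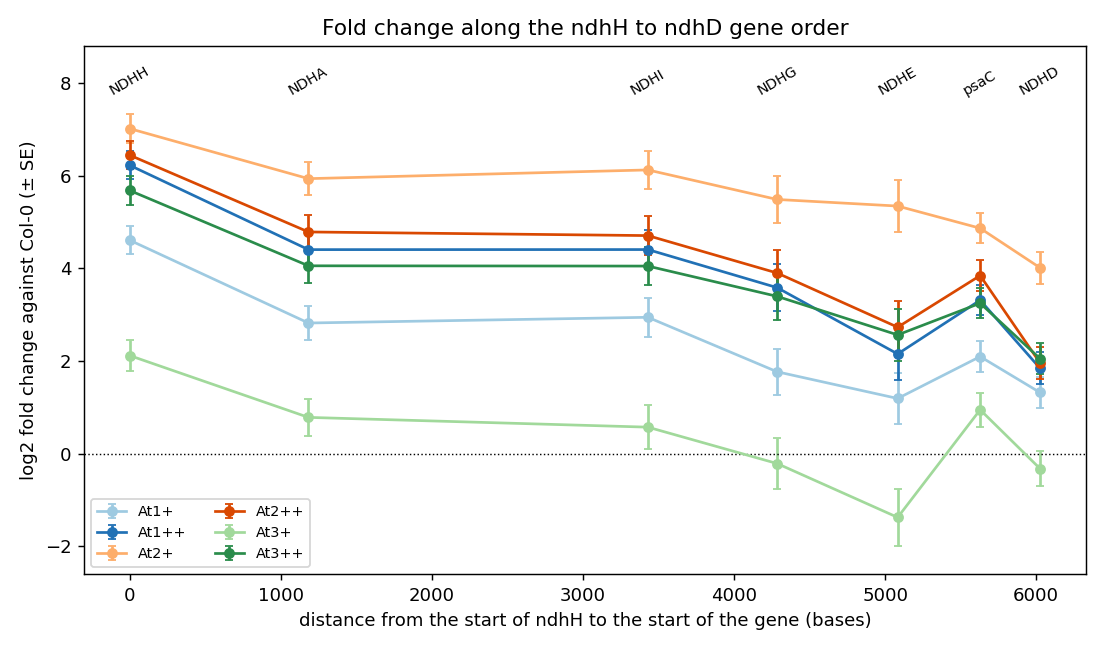
Log2 fold change against Col-0 (limma, bars are standard errors) of the 7 genes of the ndhH to ndhD run, plotted by the distance in bases between their starts and the start of ndhH, with 1 line per over-expressing line. NDHH at the left has the largest value in all 6 lines, and psaC stands above NDHE in all lines but At2+. ATCG01120 (rps15), of the same transcription unit, is not plotted.

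The same pattern can be read from neighbouring genes within a library, which no scaling between libraries can move. For each read on NDHA, whose first base follows the end of ndhH with 1 base between them in the junction shown above, NDHH had 1.08, 1.20 and 1.35 reads in At1+, 1.13, 1.19 and 1.40 in At1++, 0.609, 0.850 and 0.777 in At2+, 1.16, 1.02 and 1.13 in At2++, 0.826 and 0.933 in At3+ and 1.09, 1.105 and 1.04 in At3++, against 0.400, 0.200 and 0.412 in Col-0. Every library of the lines, At3+ included, lay above every Col-0 library. For each read on NDHD, NDHH had 1.11, 1.27 and 1.59 reads in At1+, 1.86, 3.09 and 3.78 in At1++, 1.13, 0.988 and 1.099 in At2+, 3.18, 3.30 and 2.57 in At2++, 0.543 and 0.955 in At3+ and 1.75, 1.92 and 1.35 in At3++, against 0.127, 0.0909 and 0.146 in Col-0. These pairs were chosen after their values were seen, and the ratios carry no test.

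Plastid reads as a whole were more frequent in the lines. Their share of all reads was 0.153% ± 0.0475 in At1+ and 0.240% ± 0.0516 in At1++, 0.653% ± 0.303 in At2+ and 0.308% ± 0.0348 in At2++, and 0.0600% ± 0.0138 in At3+ and 0.211% ± 0.0261 in At3++, against 0.0452% ± 0.0204 in Col-0 (SD, n = 3, and n = 2 for At3+). The 2-sided exact permutation p was 0.1 in each line with 3 samples, the smallest this design allows, and 0.4 in At3+, where 0.2 is the smallest. The library kit selects polyadenylated RNA, which holds only a small part of plastid transcripts, so these shares are not the amount of plastid RNA in the cell. The share of mitochondrial identifiers was also above Col-0 in 5 lines, with At3+ within the Col-0 spread. It was 0.0533% ± 0.00797 in At1+ and 0.0472% ± 0.00695 in At1++, 0.115% ± 0.0142 in At2+ and 0.0538% ± 0.00802 in At2++, and 0.0226% ± 0.00233 in At3+ and 0.0481% ± 0.00624 in At3++, against 0.0216% ± 0.00698 in Col-0. In both shares At2+ was the highest and At3+ the lowest of the lines. In At1+, At1++, At2++ and At3++ the mitochondrial means lay close together (0.0472% to 0.0538%), while the plastid means ran between 0.153% and 0.308%. The part of poly(A) selection or RNA quality was not tested.

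Within the plastid reads, the 10 NDH members together took a larger share in 4 lines. The share was 3.80% ± 0.510 in At1+ and 5.87% ± 0.569 in At1++, 6.44% ± 1.32 in At2+ and 5.52% ± 0.703 in At2++, and 2.51% ± 0.219 in At3+ and 5.38% ± 0.425 in At3++, against 2.71% ± 0.594 in Col-0 (SD, n = 3, and n = 2 for At3+). All libraries of At1++, At2+, At2++ and At3++ lay above all Col-0 libraries, at an exact permutation p of 0.1 each (2-sided, the smallest this design allows). For At1+ the exact permutation p was 0.2 and for At3+ it was 0.8, with the difference for At3+ smaller than the spread between Col-0 libraries. Part of this share is set by other plastid transcripts: ATCG00020 alone held 27.7% ± 8.33 of the plastid reads in Col-0 and 6.09% ± 1.29 in At1++. With the 3 most abundant other plastid identifiers left out of the denominator, the NDH share was 7.13% ± 0.697 in At1++, 8.00% ± 0.918 in At2+, 7.02% ± 0.699 in At2++ and 7.18% ± 0.160 in At3++, against 4.75% ± 0.859 in Col-0.

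**Figure D3:**
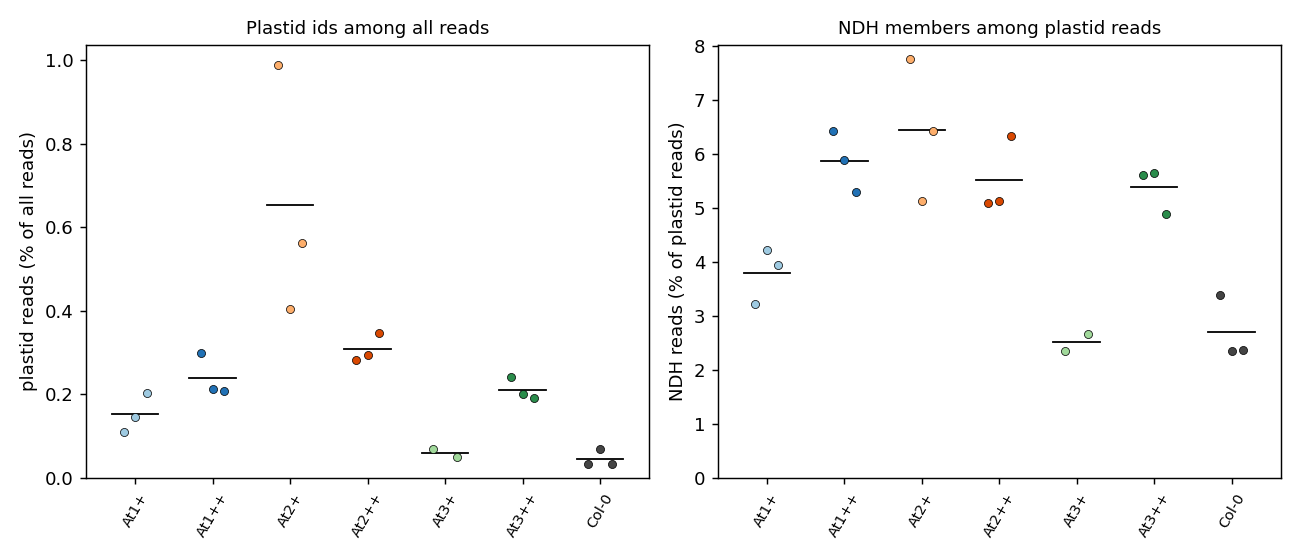
Percentage of all reads on plastid identifiers (left) and percentage of plastid reads on the 10 NDH members (right) in every library, with bars for group means and both axes starting at 0. At2+ replicate 1 is the highest library on both sides, and the At3+ libraries lie near those of Col-0.

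Whether single members differed relative to other plastid transcripts was tested with edgeR on the plastid reads alone, a test added after the data were seen, with each library scaled to its plastid total. NDHH was called higher in all 6 lines, with log2 fold changes of 2.96 in At1+ and 3.88 in At1++, 3.20 in At2+ and 3.62 in At2++, and 1.81 in At3+ and 3.47 in At3++ and edgeR adjusted p of 0.00124 or smaller. NDHI was called higher in 5 lines (all but At3+), and NDHA passed in 4 (At1++, At2+, At2++ and At3++), with 0.98 in At1+ just under the fold required (edgeR adjusted p = 0.00152). NDHC and NDHF were called higher in At1++, At2+, At2++ and At3++, NDHG in At1++, At2+ and At3++, and NDHE in At2+. With TMM factors over the plastid identifiers in place of the plastid total, NDHC (0.96) and NDHF (0.98) were no longer called in At1++, where 4 members were, and NDHA was called in At1+ (1.197). NDHJ and NDHK were called in none under either scaling. NDHJ had values between 0.01 in At1+ and 0.48 in At2++, and NDHK came closest in At2++ with 0.99 (edgeR adjusted p = 0.00534, under the fold required). NDHD went the other way and was called lower in At2++ (-1.05, edgeR adjusted p = 0.000656). In the other lines its value was -0.56 in At1+ (edgeR adjusted p = 0.0732), -0.67 in At1++ (0.0224, under the fold required), -0.03 in At2+, -0.83 in At3+ (0.0585) and -0.39 in At3++.

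In counts, 2 of 10 members were called higher within the plastid reads in At1+ and 6 in At1++, 7 in At2+ and 5 in At2++, and 1 in At3+ and 6 in At3++. Among the 88 plastid identifiers tested the percentage called higher was 18.2% in At1+ and 28.4% in At1++, 33.0% in At2+ and 25.0% in At2++, and 4.55% in At3+ and 25.0% in At3++, and the percentage called lower was 13.6% in At1+ and 15.9% in At1++, 15.9% in At2+ and 18.2% in At2++, and 4.55% in At3+ and 14.8% in At3++. In At1+ and At3+ the members' count was therefore near the background. Leaving out 1 library moved some counts: without Col-0 replicate 2 it was 3 in At1++ and 3 in At3++, without At1++ replicate 1 it was 3 in At1++, and in At1+ it was 4 without Col-0 replicate 1 and 1 without Col-0 replicate 3.

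**Figure D4:**
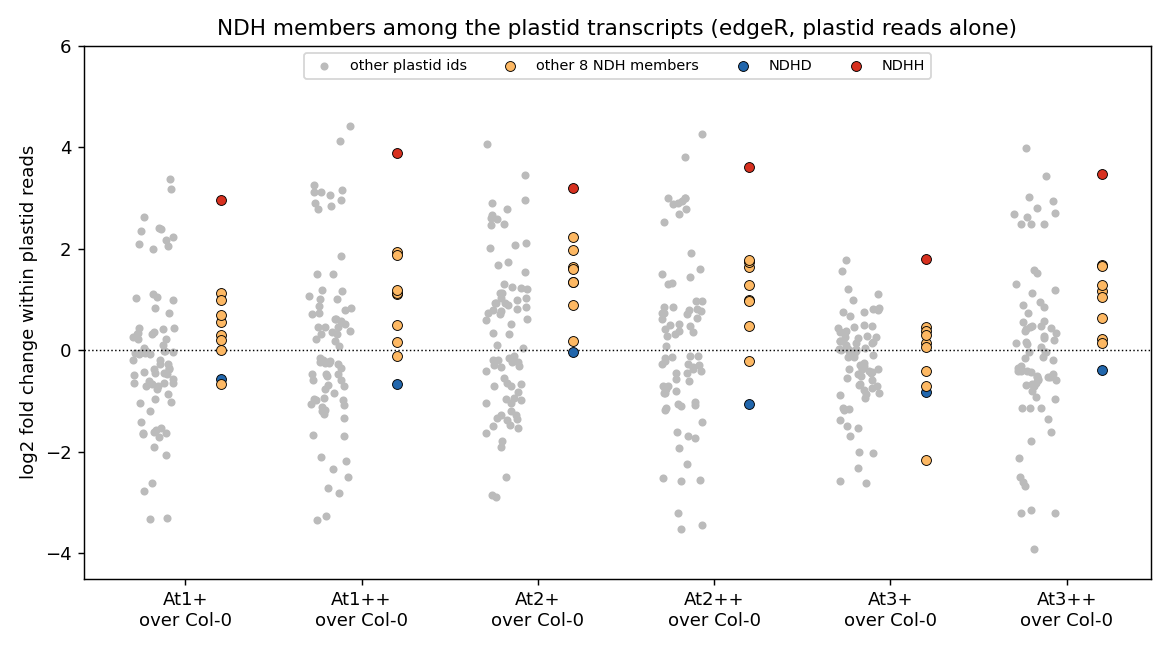
Log2 fold change of each plastid identifier against Col-0 within the plastid reads (edgeR, libraries scaled to the plastid total), with NDH members in colour beside the other plastid identifiers in grey. NDHH is the highest member in every line, and NDHD lies below 0 in all 6.

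NDHD's share of the plastid reads shows the same in single libraries. It was 0.626, 0.781 and 0.668% in At1+, 0.86, 0.588 and 0.472% in At1++, 1.02, 0.92 and 1.07% in At2+, 0.445, 0.366 and 0.664% in At2++, 0.635 and 0.51% in At3+ and 0.798, 0.754 and 0.783% in At3++, against 1.27, 0.868 and 0.95% in Col-0. All libraries of At1+, At1++, At2++, At3+ and At3++ lay below all Col-0 libraries, while At2+ overlapped them. In At1++ the margin was small, with 0.86% in its highest library against 0.868% in the lowest of Col-0. Of the 92 other plastid identifiers, 19 lay below all Col-0 libraries in At1+, 22 in At1++ and 19 in At2+. The number was 25 in At2++, 13 in At3+ and 23 in At3++. NDHH took 0.692, 0.99 and 1.06% in At1+, 1.6, 1.82 and 1.79% in At1++, 1.15, 0.909 and 1.17% in At2+, 1.41, 1.21 and 1.71% in At2++, 0.344 and 0.487% in At3+ and 1.4, 1.45 and 1.05% in At3++, against 0.162, 0.0789 and 0.139% in Col-0. Every library of the lines lay above every Col-0 library for NDHH. Of the 92 other plastid identifiers, 19 lay above all Col-0 libraries in At1+, 28 in At1++ and 34 in At2+. The number was 33 in At2++, 12 in At3+ and 27 in At3++. Over the 20 libraries, Pearson's r between 2 members ran between 0.80 (NDHH and NDHE) and 0.99 (NDHI and NDHA) on log2 normalized counts, with a median of 0.95 over 45 pairs, and between -0.39 (NDHH and NDHD) and 0.96 (NDHI and NDHA) on log2 shares of plastid reads, with a median of 0.55. These correlations are descriptions over libraries that share groups, depth and plastid content.

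Ranked by the median log2 fold change over the 6 lines, 8 of the 10 members ranked 41 or higher among the 92 plastid identifiers tested. NDHH was the highest member, after ATCG00820 and ATCG01130, with a median of 5.95. NDHA followed with 4.23 and NDHI with 4.23, then NDHF (3.57), NDHG (3.49), NDHC (3.49), NDHK (3.03), NDHJ (2.61), NDHE (2.36) and NDHD (1.90). The 3 highest among the other plastid identifiers were ATCG00820 (6.37), ATCG01130 (6.22) and ATCG00770 (5.51), and the 3 lowest were ATCG00690 (-0.33), ATCG01020 (-0.68) and ATCG00590 (-0.81). Of the identifiers that neighbour the long run by number, ATCG01120 stood at 4.87 and ATCG01040 at 2.46.

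Per kb of coding sequence, the highest member in Col-0 was NDHD, at 40.5 normalized counts, and the lowest was NDHF at 3.55. NDHH stood at 5.93 in Col-0. In At1++ NDHH was the highest at 507, with NDHA at 453 and NDHF again the lowest at 47.2. In At2+ NDHA was the highest at 1558, with NDHE at 1476. The 10 members had a median level of 103 per kb in At1+ and 184 in At1++, 841 in At2+ and 342 in At2++, and 26.7 in At3+ and 181 in At3++, against 21.3 in Col-0. The nuclear-encoded partners measured, 19 in all, had medians of 876 in At1+ and 1629 in At1++, 2110 in At2+ and 2268 in At2++, and 1345 in At3+ and 1770 in At3++, against 1004 in Col-0. The median plastid-encoded level stayed below the nuclear-encoded one in every group, in libraries made from polyadenylated RNA.

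The second question was whether the 2 lines of an isoform differed. In At1++ over At1+, 6 of 10 members were called higher (NDHA, NDHC, NDHF, NDHG, NDHH and NDHI), with a median log2 fold change of 1.28, where 5.63% of all genes were called higher and 5.44% lower. NDHG had the largest value, 1.82 (limma adjusted p = 0.00396), and NDHD the smallest, 0.52 (limma adjusted p = 0.216). In At3++ over At3+ all 10 were called higher, beside 2.94% of all genes (0.774% were called lower), with a median of 3.37 and values between 1.98 for NDHJ and 3.94 for NDHE. In At2++ over At2+, by label, 6 of 10 were called lower (NDHA, NDHD, NDHE, NDHF, NDHG and NDHI), beside 2.57% of all genes (1.11% were called higher), with a median of -1.23. By the measured order of the AtIPCS2 transcript, in which At2+ is the higher line, this reads as a median of 1.23 for At2+ over At2++, beside 1.28 for At1++ over At1+. The same turn for AtIPCS3, whose order did not pass the test, goes the other way. It gives a median of -3.37 for At3+ over At3++, with 10 of 10 members called lower. By label, the log2 difference of At2++ over At2+ was -2.61 for NDHE (limma adjusted p = 0.00139) and -2.05 for NDHD (limma adjusted p = 0.000101), while NDHH stood at -0.57 (limma adjusted p = 0.196). Without At2+ replicate 1, the library with the highest plastid share, 2 members were called over all genes, and without At2++ replicate 1 also 2. When only these 6 libraries were fitted, 3 members were called. Within the plastid reads alone (edgeR), At2++ over At2+ had 2 members called lower, NDHD (-1.02) and NDHE (-1.54), where 5.68% of plastid identifiers were called lower and 0.00% higher. With TMM factors NDHE alone was called (NDHD stood at -0.94), and 0 were called without At2++ replicate 1 or replicate 2 and 1 without At2+ replicate 3. At3++ over At3+ had 6 called higher (NDHA, NDHE, NDHF, NDHG, NDHH and NDHI), where 25.0% were called higher and 5.68% lower. At1++ over At1+ had 0 called (1 without At1+ replicate 2, At1+ replicate 3 or At1++ replicate 3), with 5 members at an edgeR adjusted p under 0.05 (NDHA, NDHF, NDHG, NDHH and NDHI) between 0.80 and 0.98, under the fold required, where 4.55% were called higher and 2.27% lower.

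Between isoforms, taking both lines of each, all 10 members were called higher in AtIPCS2 than in AtIPCS1 lines, where 3.17% of all genes were called higher and 1.49% lower. The values ran between 1.31 for NDHH and 2.36 for NDHE, with a median of 1.75. All 10 were also called higher in AtIPCS2 than in AtIPCS3 lines, where 1.76% of all genes were called higher and 1.65% lower, with a median of 2.89. Between the AtIPCS1 and AtIPCS3 lines 4 of 10 were called higher in AtIPCS1 (NDHA, NDHG, NDHH and NDHI), where 0.648% of all genes were called higher and 1.33% lower, and the median was 1.02. With a pseudocount of 0.1 or without At1+ replicate 1 that count was 7. Taken by label, the ++ over + difference itself also differed between isoforms: it was lower for AtIPCS2 than for AtIPCS1 in 10 of 10 members (3.71% of all genes were called lower and 3.03% higher) and than for AtIPCS3 in 10 of 10 (4.16% lower and 1.23% higher among all genes). It was higher for AtIPCS3 than for AtIPCS1 in 8 of 10 members (5.30% higher and 2.62% lower among all genes), where edgeR called 2 members and DESeq2 6, and where 4 were called without At1+ replicate 3, At3+ replicate 1 or At3+ replicate 3. The AtIPCS2 and AtIPCS3 lines were also ordered by the measured transcript of their isoform (an order chosen after the data were seen, and not past the test for AtIPCS3). The AtIPCS2 difference was then higher than that of AtIPCS1 for NDHD alone (1.53, limma adjusted p = 0.0116) and lower for NDHH alone (-1.04, limma adjusted p = 0.0496). The median was -0.18, where 7.93% of all genes were called higher and 8.55% lower. In that order the AtIPCS3 difference was lower than that of AtIPCS1 in 10 of 10 members, with a median of -4.88. There 6.62% of all genes were called higher and 9.71% lower. The AtIPCS2 difference was higher than that of AtIPCS3 in 10 of 10, where 4.16% of all genes were called higher and 1.23% lower. By group mean, At2+ was the highest and At3+ the lowest of the lines for all 10 members, and At2++ came second for 9 of 10. At1++ and At3++, whose difference was not tested, had overlapping libraries for every member except NDHH, where At1++ held 546 to 690.3 and At3++ 312 to 496.

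As many as 8 of the 19 nuclear genes of the complex tested were called higher by limma in a line (At2++). Their difference from the plastid-encoded members was not tested. The list holds 18 peripheral subunits and the photosystem I linkers LHCA5 and LHCA6, of which 19 were tested. In At2++ 8 of 19 were called higher (NDHM, NDHN, NDHT, PNSB3, PNSL2, PNSL3, PNSL4 and LHCA6), beside 5.90% of all genes. Their median log2 fold change over the 19 was 0.94. In At2+ 5 of 19 were called higher (median 0.66, beside 4.76% of all genes) and in At3++ 3 (PNSL2, PNSL3 and LHCA6, median 0.62, beside 4.04%). In At1++ 1 was called higher (LHCA6, median 0.52, beside 4.06%). At an unadjusted limma p under 0.05, 19 of 19 were higher in At2+, 19 in At2++ and 17 in At3++. At that p 16 were higher and 2 lower in At1++. The share of all genes at that p was not counted. In At3+ none was called higher by limma, edgeR or DESeq2 (median 0.38, with 15 higher and 2 lower at an unadjusted limma p under 0.05). In At1+ none was called higher by any of these tools, and the median was -0.09. At an unadjusted limma p under 0.05, 2 were higher and 7 lower in At1+. There 1 was called lower (NDHT, -1.38, limma adjusted p = 2.57e-09), beside 1.96% of all genes. LHCA6, which with LHCA5 joins the NDH complex to photosystem I, had the largest difference of the 19 in At2++, 2.01. Its normalized count was 578 ± 75.5 in At1+ and 1356 ± 134 in At1++, 1780.5 ± 69.7 in At2+ and 2344 ± 287 in At2++, and 962 ± 31.8 in At3+ (n = 2) and 1688 ± 43.8 in At3++, against 579 ± 20.8 in Col-0 (SD, n = 3). In At2++ over At2+, where plastid-encoded members were lower, no nuclear partner was called in either direction by limma, edgeR or DESeq2, their median was 0.28, and 15 were higher at an unadjusted limma p under 0.05.

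Few of the assembly factors and of the factors that act on ndh transcripts were called at the thresholds used. Of 6 assembly factors, 1 was called higher in At2+ and 1 in At2++, in both CRR3 (1.06 in At2+ and 1.195 in At2++). Of all genes, 4.76% were called higher in At2+ and 5.90% in At2++. At an unadjusted limma p under 0.05, 6 of 6 assembly factors were higher in At2+ and 6 of 6 in At2++. None was called in the other lines, where at that p there were 1 higher and 3 lower in At1+, 5 higher in At1++, 3 higher in At3+ and 5 higher in At3++. Of 11 editing and processing factors tested, only CRR4 in At2++ was called (1.0999, limma adjusted p = 4.47e-05), while at an unadjusted limma p under 0.05 between 0 and 7 were higher in a line and 4 were lower in At1+. CRR4 recognises the ndhD start codon shown above. Its normalized count was 29.3 ± 6.32 in At1+ and 45.5 ± 7.38 in At1++, 57.2 ± 5.19 in At2+ and 64.8 ± 8.29 in At2++, and 40.4 ± 1.67 in At3+ (n = 2) and 50.1 ± 6.25 in At3++, against 30.1 ± 6.80 in Col-0 (SD, n = 3). Of the 4 genes of the PGR5 route of cyclic electron flow and of the plastid terminal oxidase PTOX, none was called in any line by limma, edgeR or DESeq2, with medians between -0.31 and -0.04. At an unadjusted limma p under 0.05, between 0 and 1 were higher in a line and between 1 and 3 lower.

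The transcripts whose log2 normalized counts followed the mean of the NDH members most closely over the 20 libraries were other plastid identifiers. The closest was ATCG00520 (YCF4, an assembly factor of photosystem I), with a Pearson's r of 0.99, followed by ATCG00120, ATCG00710 (a phosphoprotein of photosystem II), ATCG00130 and ATCG00660 at 0.99 each. Among nuclear genes the 5 closest were AT4G25830 (0.93), EXPA18 (0.92), AGP16 (0.92), AGP3 (0.92) and AT5G57625 (0.92), out of 19365 genes with a mean of at least 10. These values describe libraries that share groups and plastid content, and carry no test.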

How the data were processed

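RNA-seq was made from 7 groups of Arabidopsis seedlings with a poly(A)-selecting stranded kit. Before deposit, the authors used Trimmomatic for trimming, STAR for alignment to Araport, HTSeq-count for gene counts (its strand setting and all versions are not given in the sources used here) and DESeq2 for normalization. The deposited signal is a normalized count, the reads of a gene over the size factor of its library, for 25263 genes in 21 libraries. Division by the step between low values gave whole reads for 100% of them (tolerance 0.05 reads), and reads on genes numbered 12733113 to 17210244 per library. Spreads between libraries cover counting and replicate error only.

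Fits used limma 3.58.1 (R 4.3.3) on log2(value + 1) with a trend on the variance. The 22222 genes whose mean reached 1 entered one model of 7 groups without covariates, and p-values were adjusted over all genes (Benjamini-Hochberg). Fold changes on this scale understate those of low genes. A call needed an adjusted p below 0.05 and a log2 fold change of 1 or more in size. Shares of reads were compared by 2-sided exact permutation over libraries. Alternatives were edgeR 4.0.16 on the recovered reads (20326 genes tested, of which 413 in At3+ to 2160 in At2++ were called against Col-0), DESeq2 1.42.0, nuclear scaling, other filters, a pseudocount of 0.1, only the libraries compared, a replicate block, no minimum fold change and each library left out. The test on plastid reads alone (scaled to the plastid total, or with TMM factors) and the order of lines by measured AtIPCS transcript were chosen after seeing the data. The scripts were tested on simulated data. Sequences and positions came from RefSeq (TAIR10.1), where the 10 members were matched by symbol, since plastid identifiers are not listed there. Named genes were the members, the nuclear lists of the complex, the plastid identifiers beside the members or at either end of the ranking, the 5 closest genes of each kind and the introduced genes. Members and lists were chosen with earlier results of these data known. NDHL, MORF2 and ndhB were not analysed here.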

Additional observations from a re-analysis of the deposited data

Results flagged for a closer look

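Taken by label, the difference between the ++ and + lines was not the same for the 3 isoforms, which was tested as a contrast of contrasts in limma (values are the ++ over + log2 difference of the first isoform minus that of the second). For AtIPCS2 minus AtIPCS1 all 10 members passed, with NDHH (-2.19), NDHI (-2.88), NDHJ (-1.50), NDHK (-1.48), NDHA (-2.73), NDHC (-1.80), NDHD (-2.58), NDHE (-3.57), NDHF (-2.77) and NDHG (-3.40) and adjusted p of 0.0339 or smaller. For AtIPCS2 minus AtIPCS3 all 10 passed, with NDHH (-4.13), NDHI (-4.89), NDHJ (-2.63), NDHK (-2.96), NDHA (-4.42), NDHC (-3.55), NDHD (-4.43), NDHE (-6.55), NDHF (-4.83) and NDHG (-5.19) and adjusted p of 0.000399 or smaller. For AtIPCS3 minus AtIPCS1 8 passed, with NDHH (1.95), NDHI (2.01), NDHK (1.48), NDHA (1.69), NDHC (1.76), NDHD (1.85), NDHE (2.98) and NDHF (2.06) and adjusted p of 0.0444 or smaller in limma. The At2++ and At2+ labels run against the order of the measured AtIPCS2 transcript (limma adjusted p = 1.48e-08). The At3++ and At3+ labels run against that of AtIPCS3 without passing the test (limma adjusted p = 0.0987). Ordered by the transcript, the AtIPCS2 minus AtIPCS1 values ran between -1.04 for NDHH and 1.65 for NDHE, and 2 members passed (NDHH and NDHD), the AtIPCS3 minus AtIPCS1 values ran between -5.42 and -2.68, all 10 past the test, and the AtIPCS2 minus AtIPCS3 values changed sign. Also, At2+ replicate 1 held the highest plastid share of its group.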

How the results depend on the processing

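Of 403 values of comparisons recomputed under an alternative, 373 stayed within 1.5 times of the reported count or on the same side of the test. These include the shares of reads, whose exact permutation p cannot go below 0.1. For those shares only a change of direction could have been seen. The counts of members in At1++, At2+, At2++ and At3++ against Col-0 were 10 under every alternative, and those in At1+ were 8 to 10. Of 700 fold changes of members refitted in the lines other than At3+, 0 changed direction. In At3+ the values close to 0 did: with a library left out, NDHC ran between -0.10 and 1.32 (lowest without At3+ replicate 3), NDHD between -0.72 and 0.084 (highest without At3+ replicate 3), NDHF between -0.39 (without At3+ replicate 1) and 0.54, with -0.15 without Col-0 replicate 3, and NDHG between -0.62 and 0.19 (highest without At3+ replicate 3), with 0.11 without Col-0 replicate 2. With the replicate block NDHF was -0.069. The NDH share of plastid reads in At3+ was 0.145 percentage points above Col-0 without Col-0 replicate 1, and the differences left without a library ran between -0.373 and 0.145.

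For At3+ against Col-0, the count of members called was 0 in edgeR and 1 to 2 with a library left out. For At2++ against At2+ it was 3 with only the libraries compared and 2 to 9 with a library left out. For AtIPCS1 against AtIPCS3 lines it was 7 with a pseudocount of 0.1, 7 with no minimum fold change and 3 to 7 with a library left out. For the ++ over + difference of AtIPCS3 against that of AtIPCS1 it was 2 in edgeR and 4 to 9 with a library left out. Within plastid reads, the counts with a library left out were 1 to 4 in At1+, 3 to 6 in At1++ and 3 to 6 in At3++ against Col-0, 0 to 1 in At1++ against At1+ and 0 to 2 in At2++ against At2+, where TMM factors over the plastid identifiers gave 1. The order of the AtIPCS2 and AtIPCS3 lines by the measured transcript of their isoform was chosen after seeing the data. In it the directions of At2++ against At2+ (6 called) and At3++ against At3+ (10 called) turn by construction. The ++ over + difference of AtIPCS2 against that of AtIPCS1 had 2 called, that of AtIPCS3 against AtIPCS1 10 and that of AtIPCS2 against AtIPCS3 10. The causes were not tested. Where a library was left out of At3+, the lone sample is assumed to vary like the other groups.

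Replicate numbers did not pair the samples: the correlation of same-numbered deviations ran between -0.26 and 0.26, and in 0 of 15 pairs of groups did every pair exceed 0.1. With the replicate block, the count of members called against Col-0 was 9 in At1+, 1 in At3+ and 10 in each other line, and it was 6 in At1++ against At1+, 6 in At2++ against At2+ and 10 in At3++ against At3+, and 7 for the ++ over + difference of AtIPCS3 against that of AtIPCS1. Depth limits Col-0 and At3+ most, where single members had as few as 3 and 2 reads in a library.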
